A study of Mus musculus with 11 samples.

Results

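The 9 genes described here are neural lineage factors and markers, read from the rows of the deposited RNA-seq count table that carry the symbols Neurod1, Neurog2, Pax6, Sox1, Nes, Ncam1, Tubb3, Map2 and Rest. They are 9 of 55291 rows, of which 32892 held a count in any library. The study asked, by its title, how FACT, a histone chaperone made of SPT16 and SSRP1, maintains the expression of pluripotency factors in mouse embryonic stem cells. All libraries came from E14 cells, an embryonic stem cell line, kept feeder-free in serum with leukemia inhibitory factor (LIF) and GSK and MEK inhibitors. In the tagged lines, called 10E and 11D after the count table, the C-terminus of SPT16 bears a V5-AID tag, an epitope joined to an auxin-inducible degron, which lets indole-3-acetic acid (IAA) direct the protein to degradation.

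The groups were tagged cells with 500 nM IAA for 24 hours (1 library of line 10E and 2 of line 11D), tagged cells with an equal volume of ethanol (EtOH, the solvent; 2 libraries of each line), and untagged cells with IAA (3 libraries). Each tagged line is 1 targeted clone, and no EtOH library of the untagged line was analysed here. Total counts per library ran between 3100127 and 13510163. The degron acts on the protein, so the Supt16 transcript does not check the labels. Supt16 averaged 273 ± 17.4 CPM (the read count scaled to library size with TMM factors, which adjust for composition differences between libraries) in tagged IAA, 388 ± 21.3 CPM in tagged EtOH and 556 ± 19.6 CPM in untagged IAA libraries (SD, n = 3, 4 and 3), and its partner Ssrp1 averaged 146 ± 4.43, 310 ± 22.7 and 315 CPM in the same groups. In tagged IAA over tagged EtOH libraries the log2 fold changes were -0.50 ± 0.09 for Supt16 (SE; edgeR FDR = 0.000154) and -1.08 ± 0.09 for Ssrp1 (FDR = 8e-08). The 8 markers of embryonic stem cells summed to between 1802 and 1981 CPM in tagged IAA libraries. The sums were 4237 to 5366 CPM in tagged EtOH and 4626 to 4806 CPM in untagged IAA libraries. The defining markers of the labelled cell type were thus present in every group, but at lower levels in tagged IAA. Over tagged EtOH, all 8 were called lower (edgeR FDR under 0.05, median log2 fold change -1.52), beside 28.1% of all genes tested. Against untagged IAA, 7 of the 8 were called lower, beside 27.8%.

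Neural cells arise in the embryo from the neural plate, whose progenitors express the SOXB1 factor SOX1, the paired-box factor PAX6 and the intermediate filament nestin. Proneural bHLH proteins such as NEUROG2 and NEUROD1 then direct progenitors to leave the cell cycle and become neurons, which fill with neuronal tubulin and the microtubule-associated protein MAP2 and carry the adhesion molecule NCAM1. In embryonic stem cells and other cells that are not neurons, the zinc-finger repressor REST sits on neuronal genes and keeps them off. Embryonic stem cells in medium with both kinase inhibitors are held in a ground state in which neural differentiation is blocked.

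The promoters of Neurod1 and Neurog2 are shown because these proneural genes had the largest fold changes of the 9, and those of Nes and Map2 because both mark neural cells and moved in opposite directions. Each window runs from 250 bases before to 50 bases after the RefSeq start on GRCm38.p6, 5′ to 3′ on the gene's strand, with each CpG in capitals. They lie at chr2:79456587-79456886 on the minus strand for Neurod1, chr3:127632886-127633185 on the plus strand for Neurog2, chr3:87970843-87971142 on the plus strand for Nes and chr1:66175079-66175378 on the plus strand for Map2.
Neurod1: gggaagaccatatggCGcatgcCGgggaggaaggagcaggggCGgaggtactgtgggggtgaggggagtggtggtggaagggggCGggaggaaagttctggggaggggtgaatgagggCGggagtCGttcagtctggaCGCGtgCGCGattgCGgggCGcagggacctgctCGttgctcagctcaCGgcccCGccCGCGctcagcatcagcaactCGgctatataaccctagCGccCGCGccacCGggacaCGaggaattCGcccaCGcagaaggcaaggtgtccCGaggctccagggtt
Neurog2: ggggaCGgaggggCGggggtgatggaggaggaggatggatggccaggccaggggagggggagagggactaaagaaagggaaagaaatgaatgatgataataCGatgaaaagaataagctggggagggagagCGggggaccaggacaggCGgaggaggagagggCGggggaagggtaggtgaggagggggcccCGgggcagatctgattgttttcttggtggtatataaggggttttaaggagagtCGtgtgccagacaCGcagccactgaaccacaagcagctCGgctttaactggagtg
Nes: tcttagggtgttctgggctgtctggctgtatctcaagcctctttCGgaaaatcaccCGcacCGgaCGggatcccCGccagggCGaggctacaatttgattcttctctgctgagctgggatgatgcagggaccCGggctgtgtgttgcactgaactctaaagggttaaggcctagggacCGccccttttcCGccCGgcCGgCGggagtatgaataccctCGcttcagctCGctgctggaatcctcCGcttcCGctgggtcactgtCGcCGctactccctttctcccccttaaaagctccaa
Map2: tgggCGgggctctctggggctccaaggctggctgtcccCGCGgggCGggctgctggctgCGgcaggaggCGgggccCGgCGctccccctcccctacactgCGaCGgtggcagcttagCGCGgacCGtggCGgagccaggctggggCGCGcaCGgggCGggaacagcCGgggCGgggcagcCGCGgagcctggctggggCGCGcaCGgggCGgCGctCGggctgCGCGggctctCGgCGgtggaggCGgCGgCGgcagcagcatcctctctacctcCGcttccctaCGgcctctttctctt

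Among 32544 distinct promoter windows of this length the median was 7 CpGs. The windows of Map2 and Sox1 held 37 each, a count reached by 5.63% of all windows, those of Neurod1 and Tubb3 26 (17.0%), those of Nes and the upstream start of Pax6 18 (29.9%), the second window of Pax6 16 (33.2%) and that of Neurog2 10 (43.8%). Ncam1 and Rest are named without a sequence. TTCAGCACC and GGACAGCG, both sides of the RE1 element that REST binds, the E-boxes CAGCTG and CAGATG, and TATAAA were searched on both strands; CAGCTG reads the same on both. None of the 8 windows of the 7 genes held any of these exact strings. Variant forms were not searched, and the windows of Neurod1 and Neurog2 hold TATATAA. Over all windows the searched strings occurred in 0.372%, 1.26%, 16.4%, 17.1% and 13.6%, in the order given.

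After IAA, tagged cells held more RNA of the proneural gene Neurod1 and of nestin, and less RNA of the adhesion gene Ncam1. Counts were tested with edgeR's quasi-likelihood test over 17904 genes with line as a term, and a call needed a false discovery rate (FDR, Benjamini-Hochberg) under 0.05. Of the 9 genes, Neurod1, Neurog2, Pax6 and Nes were called higher, Ncam1, Tubb3 and Map2 lower, and Sox1 and Rest did not pass. The calls of the neuronal cytoskeleton genes Tubb3 and Map2 were lost in 3 and 4 of 17 alternative settings. Tubb3 also did not pass against untagged IAA libraries. Of all genes tested, 57.4% were called, 29.3% as higher and 28.1% as lower. The 7 calls among 9 genes stand beside that background. Neurog2 and Pax6 entered the test only through tagged IAA libraries, since no EtOH library reached the cutoff of 1.29 CPM that the filter requires in at least 1 library. The filter selected both for higher values there, so their calls support nothing, and their counts are given instead. Of 2582 genes tested only through tagged IAA libraries, 1583 were called, and of 512 tested only through EtOH libraries, 239. Intervals given for genes tested through 1 treatment alone cover counting error only and are no test. Of the other 7 of the 9 genes, 2 were called higher and 3 lower. Of the 14810 genes that reached the cutoff in both treatments, 24.7% were called higher and 32.4% lower. Where groups are said below not to overlap, the share of all genes without overlap was not counted, so this is description only. In bulk RNA, fewer cells of a type and less RNA per cell cannot be told apart.

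**Figure D1:**
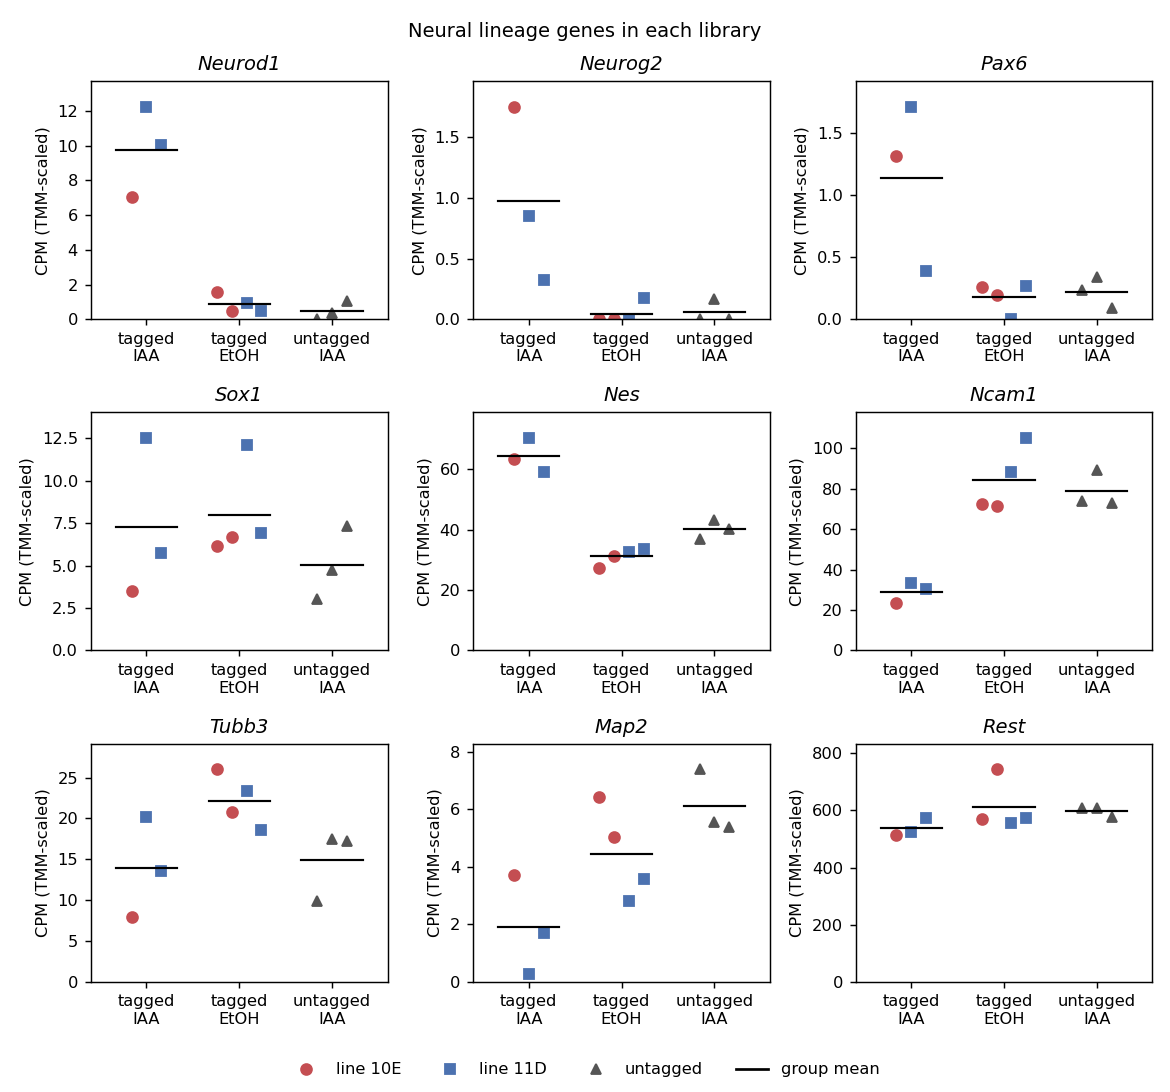
Level of each of the 9 genes in every library, in CPM on a linear axis from 0, with tagged IAA, tagged EtOH and untagged IAA libraries from left to right; points are libraries, coloured by line, and bars are group means. Neurod1 and Nes lie higher, and Ncam1 lower, in all 3 tagged IAA libraries than in every other library.

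Neurod1 encodes a proneural bHLH factor that drives terminal neuronal differentiation and is also used in endocrine cells of the gut and pancreas. It lies at chr2:79452521-79456751 on the minus strand of mm10 (GENCODE vM21, as for all gene positions here) and stood at 7.02 CPM in the 10E IAA library and 12.3 and 10.0 CPM in the 11D IAA libraries, against 1.57 and 0.494 CPM in 10E EtOH, 0.934 and 0.448 CPM in 11D EtOH, and 0, 0.337 and 1.02 CPM in untagged IAA libraries. The tagged IAA libraries lay above all others without overlap. The log2 fold change of tagged IAA over tagged EtOH was 3.51 ± 0.38 (SE; edgeR FDR = 1.31e-06), and Neurod1 rose in each line, by 2.82 ± 0.54 in 10E (FDR = 0.00137) and 4.22 ± 0.50 in 11D (FDR = 2.1e-05). In pooled reads this was 230 counts in tagged IAA and 25 in tagged EtOH libraries, a ratio of 15.6 by library totals (exact 95% interval 10.3 to 24.6, counting error only).

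Of the exon bases of Neurod1, 13.0% are shared with other genes, 201 bases with Cerkl on the same strand and 154 with Gm26755 on the opposite strand. Cerkl itself averaged 4.98 ± 0.11 CPM in tagged IAA, against 1.43 ± 0.61 CPM in tagged EtOH libraries, and rose by 1.72 ± 0.34 (edgeR FDR = 0.000456). How the reads of this overlap were assigned is not given in the sources used here, and its part in the Neurod1 value was not tested.

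Neurog2 encodes a proneural factor that acts upstream of Neurod1 in cortical progenitors and lies at chr3:127633135-127635631 on the plus strand. Its reads numbered 8 in the 10E IAA library and 3 and 5 in the 11D IAA libraries, against 0, 0, 0 and 2 in the 4 tagged EtOH libraries and 0, 1 and 0 in the untagged IAA libraries. The groups did not overlap in CPM, which the filter favours, and the highest level anywhere was 1.75 CPM. The ratio of pooled counts of tagged IAA over tagged EtOH was 13.6 (exact 95% interval 3.19 to 122). The fitted log2 fold change was 3.62 ± 1.04 (edgeR FDR = 0.0072).

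Olig3, a bHLH factor of the dorsal neural tube, was the other called gene among 14 proneural bHLH genes. It held 101 counts in tagged IAA and 5 in tagged EtOH libraries, a ratio of 34.2 (exact 95% interval 14.2 to 108), and like Neurog2 it was tested only through the tagged IAA libraries. The list had 3 genes tested, all called higher, and 11 too low to test. Among these, Neurog3, the endocrine member of the family, had 0 counts in tagged IAA and 4 in tagged EtOH libraries.

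Pax6 encodes the paired-box factor of forebrain and eye progenitors and lies at chr2:105668900-105697364 on the plus strand. It had 6 counts in each of the 3 tagged IAA libraries, against 2, 2, 0 and 3 in tagged EtOH and 1, 2 and 1 in untagged IAA libraries. In CPM the tagged IAA libraries stood at 1.32, 1.71 and 0.388 and the highest of the others at 0.337, so the groups did not overlap but the deepest tagged IAA library lay close to the rest. The ratio of pooled counts over tagged EtOH was 4.36 (exact 95% interval 1.74 to 12.4), and the fitted log2 fold change was 2.11 ± 0.79 (edgeR FDR = 0.0317), a call that was lost in 7 of 14 alternative settings.

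Sox1, the earliest SOX marker of the neural plate, lies at chr8:12395295-12400126 on the plus strand. It had 3.51 CPM in the 10E IAA library and 12.5 and 5.76 CPM in the 11D IAA libraries, against 6.16 and 6.72 CPM in 10E EtOH, 12.1 and 6.90 CPM in 11D EtOH, and 3.01, 4.72 and 7.36 CPM in untagged IAA libraries. The groups overlapped, and the highest values of both treatments were in the first replicates of line 11D, the 2 libraries with the fewest counts. The log2 fold change was -0.35 ± 0.31 and did not pass (edgeR FDR = 0.334). Without the first 11D IAA replicate it was -0.73 and passed (FDR = 0.0377).

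Across 27 transcription factors of the neural plate and progenitors, 16 were tested and 9 were called higher, but 7 of these 9 entered the test only through tagged IAA libraries. Of the 8 that reached the cutoff in both treatments, 2 were called, Sox11 and Pou3f1. Sox11, a SOXC factor of immature neurons, averaged 19.2 ± 10.4 CPM in tagged IAA, against 4.39 ± 2.72 CPM in tagged EtOH libraries (log2 fold change 2.37 ± 0.21, edgeR FDR = 1.57e-07). Pou3f1, a POU factor of epiblast and early neural cells, averaged 4.74 ± 2.74 CPM in tagged IAA, against 1.06 ± 0.47 CPM in tagged EtOH libraries (2.45 ± 0.37, FDR = 3.87e-05), and shares 8.57% of its exon bases with another gene. Sox3, the SOXB1 relative of Sox1 and tested only through tagged IAA libraries, held 82 counts in tagged IAA and 18 in tagged EtOH libraries (3.08 ± 0.40, FDR = 7.52e-06). The median log2 fold change of those 8 was -0.05, beside -0.08 over all genes that reached the cutoff in both.

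Nes encodes nestin, the intermediate filament of neural stem cells, and lies at chr3:87971078-87980451 on the plus strand. It stood at 63.4 CPM in the 10E IAA library and 70.4 and 59.0 CPM in the 11D IAA libraries, against 27.2 and 31.4 CPM in 10E EtOH, 32.7 and 33.5 CPM in 11D EtOH, and 36.8, 43.3 and 40.2 CPM in untagged IAA libraries. No library of one group reached the range of another. The log2 fold change over tagged EtOH was 1.01 ± 0.11 (edgeR FDR = 2.05e-06), with 1.10 in 10E and 0.95 in 11D.

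Of 10 progenitor markers, 9 were tested, all of which reached the cutoff in both treatments, with 4 called higher (44.4%) and 3 lower (33.3%), beside 24.7% and 32.4% of such genes. The lower count was 1 without the 10E IAA library or without the second 11D IAA replicate, and 2 without the second replicate of either line in EtOH. Beside Nes, Dll1, a Notch ligand of committing progenitors, had a log2 fold change of 2.16 ± 0.49 over both lines (edgeR FDR = 0.00135), 4.43 ± 0.63 in 10E with its single IAA library (FDR = 0.000161) and 1.13 ± 0.42 in 11D (FDR = 0.042). Between the lines in EtOH, Dll1 differed by -2.82 ± 0.62 (10E over 11D, edgeR FDR = 0.0261), and the difference in response did not pass (3.31 ± 0.79, FDR = 0.938). The receptor Notch1 rose by 0.44 ± 0.09 (edgeR FDR = 0.000487). Dll1 and Notch1 share 20.6% and 9.76% of their exon bases with other genes. Msi2, an RNA-binding protein of stem cells, had 89.2 ± 1.82 CPM in tagged IAA and 266 ± 15.8 CPM in tagged EtOH libraries, and fell by 1.59 ± 0.09 on the log2 scale (FDR = 1.9e-09). Hes1, a Notch effector, had a log2 fold change of -0.66 ± 0.20 (edgeR FDR = 0.0115), with -1.25 in 10E (FDR = 0.00371) and -0.29 in 11D (FDR = 0.291), and Prom1 one of -0.63 ± 0.23 (FDR = 0.0282). With library totals in place of TMM, 6 of these markers were called higher and 1 lower.

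Ncam1 encodes the neural cell adhesion molecule and spans 297 kb at chr9:49502136-49798925 on the minus strand. It had 23.5 CPM in the 10E IAA library and 33.3 and 30.4 CPM in the 11D IAA libraries, against 72.2 and 71.5 CPM in 10E EtOH, 88.1 and 105 CPM in 11D EtOH, and 74.1, 89.3 and 72.7 CPM in untagged IAA libraries. All tagged IAA libraries lay below all others. The log2 fold change was -1.63 ± 0.11 (edgeR FDR = 1.25e-08), -1.63 in 10E and -1.62 in 11D. It had the smallest FDR of the 9 genes.

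The other adhesion genes did not move together. L1cam, whose product guides axons, averaged 13.6 ± 1.68 CPM in tagged IAA, against 0.629 ± 0.346 CPM in tagged EtOH libraries (log2 fold change 4.60 ± 0.33, edgeR FDR = 1.9e-08). Nrcam, an L1 family member, rose by 2.39 ± 0.41 (FDR = 0.000117). St8sia4, one of the enzymes that put polysialic acid on NCAM1, had 56 counts in tagged IAA and 4 in tagged EtOH libraries. Cntn2, an axonal contactin, averaged 4.79 ± 1.10 CPM in tagged IAA, against 23.5 ± 7.88 CPM in tagged EtOH libraries (-2.42 ± 0.18, FDR = 2.61e-08), and Nfasc, neurofascin, had -1.41 ± 0.29 (FDR = 0.000566). Of 10 genes, 7 were tested, 3 called higher and 3 lower. L1cam and St8sia4 were tested only through tagged IAA libraries, so the filter selected them for higher values there. Of the 4 that reached the cutoff in both treatments, 1 was higher and 3 lower, beside 24.7% and 32.4% of such genes.

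Tubb3 encodes the class III beta tubulin of neurons and lies at chr8:123411424-123422015 on the plus strand. It had 7.90 CPM in the 10E IAA library and 20.2 and 13.5 CPM in the 11D IAA libraries, against 26.1 and 20.7 CPM in 10E EtOH, 23.3 and 18.6 CPM in 11D EtOH, and 9.95, 17.5 and 17.2 CPM in untagged IAA libraries. Tagged IAA and tagged EtOH libraries overlapped in line 11D. The log2 fold change was -0.76 ± 0.24 (edgeR FDR = 0.0113), with -1.58 ± 0.33 in 10E (FDR = 0.00248) and -0.35 ± 0.23 in 11D (FDR = 0.243). The difference between the lines was -1.23 ± 0.40 and did not pass (FDR = 0.938). The call rests on the single 10E IAA library, without which the log2 fold change was -0.34 (FDR = 0.255), and it was also lost without the second 11D IAA replicate (-0.70, FDR = 0.0617) and with library totals (-0.44, FDR = 0.117).

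Of the 8 beta tubulin genes, 7 were tested, 4 called higher and 3, with Tubb3, lower. Of the 6 that reached the cutoff in both treatments, 3 were higher and 3 lower, beside 24.7% and 32.4% of such genes. Tubb2a averaged 52.4 ± 3.79 CPM in tagged IAA, against 23.4 ± 3.14 CPM in tagged EtOH libraries (log2 fold change 1.11 ± 0.13, edgeR FDR = 2.08e-06), Tubb4b rose by 0.69 ± 0.11 (FDR = 4.62e-05) and Tubb4a, tested only through tagged IAA libraries, by 2.42 ± 0.41 (FDR = 0.000105). Tubb5, the major beta tubulin of dividing cells, averaged 1296 ± 179 CPM in tagged IAA, against 2607 ± 125 CPM in tagged EtOH libraries (FDR = 1.18e-06), and Tubb2b had a log2 fold change of -0.92 ± 0.09 (FDR = 2.44e-07). Beta tubulins have similar sequences, so how the counting split reads between them is uncertain.

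Map2 encodes the microtubule-associated protein of dendrites and spans 267 kb at chr1:66175273-66442583 on the plus strand. It had 3.73 CPM in the 10E IAA library and 0.285 and 1.68 CPM in the 11D IAA libraries, against 6.42 and 5.04 CPM in 10E EtOH, 2.80 and 3.58 CPM in 11D EtOH, and 7.41, 5.56 and 5.40 CPM in untagged IAA libraries. The 10E IAA library lay above both 11D EtOH libraries, but within each line the IAA libraries were lower. The log2 fold change was -1.01 ± 0.36 (edgeR FDR = 0.0228), with -0.62 ± 0.53 in 10E (FDR = 0.38) and -1.32 ± 0.48 in 11D (FDR = 0.0355). The call was lost without the second 11D EtOH replicate (-0.77, FDR = 0.133), without the second 11D IAA replicate (FDR = 0.0545) and with library totals (-0.69, FDR = 0.12).

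Of the MAP2 and tau family, 1 gene was called higher and 2 lower. All 3 reached the cutoff in both treatments, where 24.7% of genes were called higher and 32.4% lower. Mapt, tau, the microtubule-associated protein of axons, averaged 98.1 ± 3.73 CPM in tagged IAA, against 34.6 ± 10.8 CPM in tagged EtOH libraries (log2 fold change 1.62 ± 0.15, edgeR FDR = 3.12e-07). Map4, the widely expressed family member, averaged 258 ± 10.9 CPM in tagged IAA, against 605 ± 90.0 CPM in tagged EtOH libraries (-1.19 ± 0.10, FDR = 9.91e-08). Among 18 markers of the neuronal cytoskeleton and of neuronal RNA-binding proteins, 16 were tested, 7 called higher and 6 lower. Of the 14 that reached the cutoff in both treatments, 6 were higher (42.9%) and 5 lower (35.7%), beside 24.7% and 32.4% of such genes. Over the 16, library totals gave 8 higher and 2 lower. Without the second 11D IAA replicate 3 were lower, and without the second 11D EtOH replicate 4. Nefh, the heavy neurofilament, averaged 38.4 ± 6.85 CPM in tagged IAA, against 6.75 ± 0.50 CPM in tagged EtOH libraries (2.51 ± 0.16, FDR = 5.74e-09). Gap43, a growth cone protein tested only through tagged IAA libraries, held 66 counts in tagged IAA and 6 in tagged EtOH libraries. Stmn2, a tubulin-binding stathmin of neurons, averaged 108 ± 4.95 CPM in tagged IAA, against 196 ± 10.2 CPM in tagged EtOH libraries (-0.89 ± 0.09, FDR = 6.46e-07), and Map1b had -0.47 ± 0.10 (FDR = 0.00066). Elavl4, a neuronal Hu protein tested only through EtOH libraries, held 2 counts in tagged IAA and 38 in tagged EtOH libraries, a ratio of 0.0892 (exact 95% interval 0.0104 to 0.345).

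**Figure D2:**
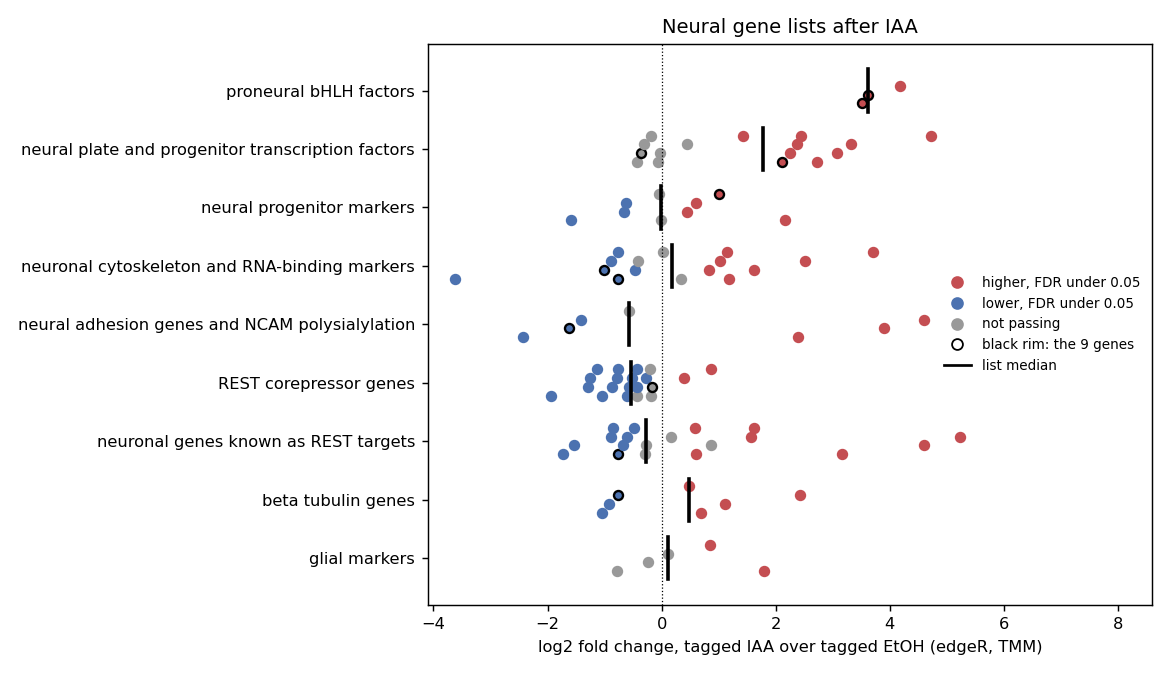
Log2 fold change of tagged IAA over tagged EtOH (edgeR, TMM) for each tested gene of 9 neural gene lists; red and blue points passed an FDR under 0.05, grey points did not, black rims mark the 9 genes and vertical bars are list medians. REST corepressors lie mostly to the left. Of the called proneural and neural plate factors, 2 of 3 and 7 of 9 were tested only through tagged IAA libraries. The filter thus selected them for positions to the right.

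Rest encodes the repressor itself and lies at chr5:77265491-77286432 on the plus strand. It had 515 CPM in the 10E IAA library and 526 and 573 CPM in the 11D IAA libraries, against 570 and 745 CPM in 10E EtOH, 555 and 574 CPM in 11D EtOH, and 609, 610 and 578 CPM in untagged IAA libraries. Tagged IAA and tagged EtOH libraries overlapped, and the log2 fold change of -0.17 ± 0.11 did not pass (edgeR FDR = 0.198) and changed sign with library totals, to 0.17 (FDR = 0.14). TMM moved the median log2 fold change of all genes by 0.33, to 0.03 from 0.36 with library totals, and the share of calls that were higher was 51.0% with TMM and 73.0% with library totals.

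Most genes for partners of REST were lower in tagged IAA libraries. Of 20 corepressor and regulator genes, Rest included, all were tested, 14 were called lower and 2 higher, with a median of -0.54, beside 32.4% lower, 24.7% higher and a median of -0.08 over all genes that, like these 20, reached the cutoff in both treatments. With library totals 7 were called lower and 2 higher. Rcor2, the CoREST form abundant in embryonic stem cells, averaged 37.6 ± 4.56 CPM in tagged IAA, against 143 ± 28.0 CPM in tagged EtOH libraries (log2 fold change -1.94 ± 0.15, edgeR FDR = 3.24e-08). Usp7, a deubiquitinase, averaged 338 ± 18.6 CPM in tagged IAA, against 795 ± 60.4 CPM in tagged EtOH libraries (-1.26 ± 0.09, FDR = 2.71e-08), and the H3K4 demethylase gene Kdm5c had -1.04 ± 0.09 (FDR = 9.16e-08). Sin3b, a SIN3 scaffold, rose by 0.86 ± 0.09 (FDR = 6.16e-07) and Rcor3 by 0.40 ± 0.15 (FDR = 0.0298).

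Neuronal genes known as REST targets held calls in both directions. Of 28, 19 were tested, 7 called higher and 8 lower, beside 29.3% and 28.1% of all genes. L1cam, Vgf and Cplx1 were tested only through tagged IAA libraries, so the filter selected them for higher values there. Of the 16 that reached the cutoff in both treatments, 4 were higher and 8 lower, beside 24.7% and 32.4% of such genes. Over the 19, library totals gave 8 higher and 4 lower, and leaving out the 10E IAA library or the second 11D IAA replicate gave 5 lower. Vgf, a neuropeptide precursor tested only through tagged IAA libraries, held 83 counts in tagged IAA and 3 in tagged EtOH libraries, a ratio of 46.9 (exact 95% interval 15.5 to 232). Bsn, bassoon of the presynaptic active zone, rose by 1.62 ± 0.22 (edgeR FDR = 1.23e-05). Grin1, an NMDA receptor subunit that shares 13.5% of its exon bases with other genes, had -1.72 ± 0.23 (FDR = 1.26e-05), and Scn3a, a sodium channel, -0.86 ± 0.19 (FDR = 0.00127).

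The comparison with untagged cells under the same agent shares the tagged IAA libraries with the comparison above. Of 17439 genes tested, 55.7% were called, 27.9% as higher and 27.8% as lower in tagged IAA. Neurod1 (3.84 ± 0.50, edgeR FDR = 1.2e-05) and Nes (0.67 ± 0.12, FDR = 0.000308) were higher in tagged IAA than in untagged IAA libraries. Ncam1 (-1.53 ± 0.13, FDR = 1.52e-07) and Map2 (-1.42 ± 0.34, FDR = 0.00221) were lower. Neurog2 and Pax6 again entered the test only through tagged IAA libraries, with at most 0.337 CPM in any untagged library, so their fits (edgeR FDR = 0.00971 and 0.042) support nothing. Their ratios of pooled counts over untagged IAA were 17.3 (exact 95% interval 2.69 to 725) and 4.86 (1.60 to 19.8). These intervals come from the same selected counts, cover counting error only and are no test. Tubb3 (-0.43 ± 0.25, FDR = 0.147), Rest (-0.17 ± 0.11, FDR = 0.189, and 0.13 with library totals) and Sox1 (0.00 ± 0.60, FDR = 0.999) did not pass edgeR's test, and the Tubb3 libraries of both groups overlapped.

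The next comparison set tagged EtOH against untagged IAA cells, which differ in the tag and in the agent. Supt16 RNA was lower in tagged EtOH libraries (-0.52 ± 0.08, edgeR FDR = 0.00715), and Ssrp1 did not pass (-0.02 ± 0.08, FDR = 0.891). None of the 9 genes was called by edgeR, beside 3.57% of all genes, nor by DESeq2, which gave 5 of the 9 an adjusted p, and 2 of the 9 had an unadjusted edgeR p under 0.05. These were Nes (-0.36 ± 0.11, FDR = 0.0835), with no overlap between the groups, and Tubb3 (0.52 ± 0.20, FDR = 0.144), also without overlap. For Tubb3 the tagged EtOH libraries had the highest mean of the 3 groups.

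Within line 10E, 35.4% of genes were called between IAA and EtOH and within line 11D 46.2%, and Neurod1, Nes and Ncam1 passed in both with the same sign. Tubb3 also passed in 10E, and Map2 in 11D. Neurog2, tested only through tagged IAA libraries, had 8 counts in 10E IAA and 0 in both 10E EtOH libraries. With 1 IAA library, the 10E test assumes that this library varies like the other groups. The interaction of line and treatment was called for 0% of genes by edgeR, with 872 at an unadjusted p under 0.05 and 1 call by DESeq2. Between the lines in EtOH, 3.23% of genes were called and none of the 9 by edgeR or by DESeq2, which gave 7 of the 9 an adjusted p, with Ncam1 the only one at an unadjusted p under 0.05 (-0.43 ± 0.13 in 10E over 11D, FDR = 0.109).

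**Figure D3:**
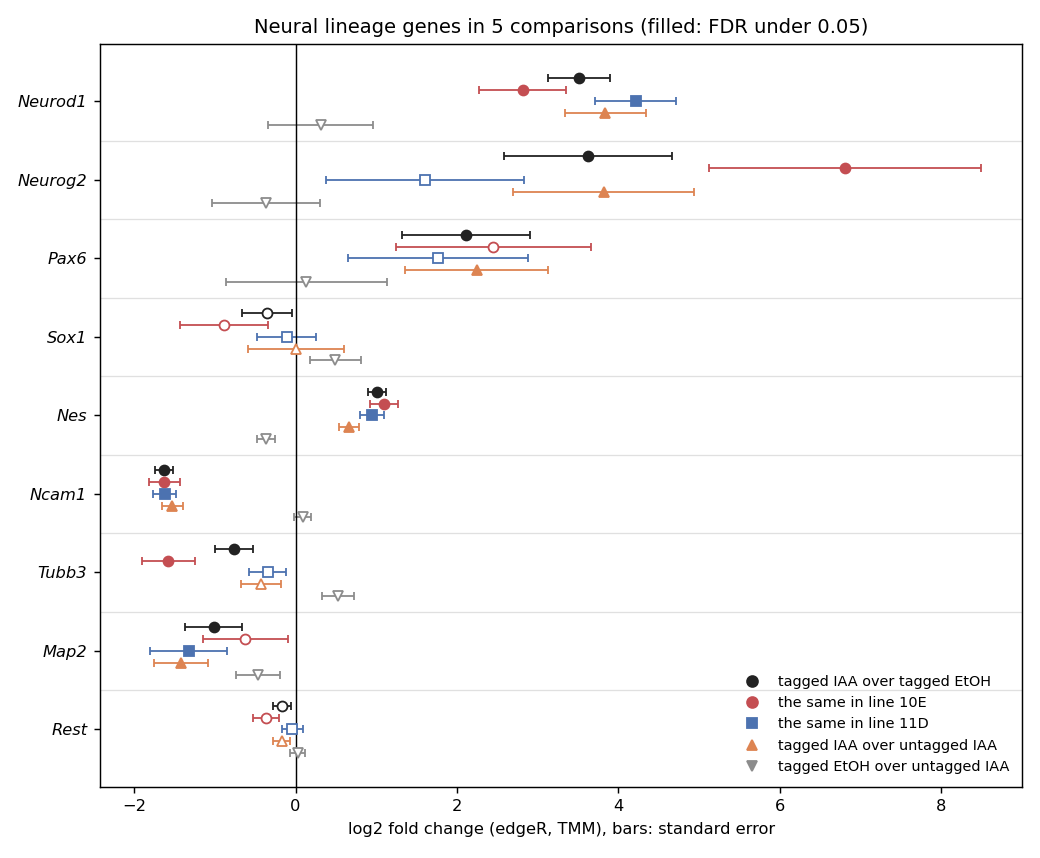
Log2 fold change with standard error of the 9 genes in 5 comparisons (edgeR, TMM); filled points passed an FDR under 0.05. Neurod1, Nes and Ncam1 are filled in both lines and against untagged IAA, and no gene is filled for tagged EtOH over untagged IAA; the fitted 10E value of Neurog2 rests on a group with no counts and is no bound.

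Levels were compared between genes as CPM per kb of exon. Rest was the highest of the 9 in every group, at 74.5 CPM per kb in tagged IAA, 84.6 in tagged EtOH and 83.0 in untagged IAA libraries, and its range overlapped no other gene's. In tagged IAA libraries Nes followed at 10.0 CPM per kb, then Tubb3 at 7.43, Neurod1 at 3.58, Ncam1 at 3.35, Sox1 at 1.50, Neurog2 at 0.439, Map2 at 0.115 and Pax6 at 0.0973. There Nes and Tubb3, Tubb3 and Neurod1, and Neurod1 and Ncam1 overlapped in range, as did all neighbours from Sox1 down. In tagged EtOH libraries the order after Rest was Tubb3 at 11.9 CPM per kb, Ncam1 at 9.72, Nes at 4.87, Sox1 at 1.65, Neurod1 at 0.316 and Map2 at 0.271, with Neurog2 and Pax6 at 0.0201 and 0.0156. The mean of Neurod1 was thus above that of Sox1 in tagged IAA and below it in tagged EtOH libraries. Their ranges overlapped in tagged IAA and did not overlap in tagged EtOH libraries. In untagged IAA libraries Ncam1 stood at 9.08 CPM per kb, Tubb3 at 7.98, Nes at 6.25, Sox1 at 1.04, Map2 at 0.372 and Neurod1 at 0.166.

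**Figure D4:**
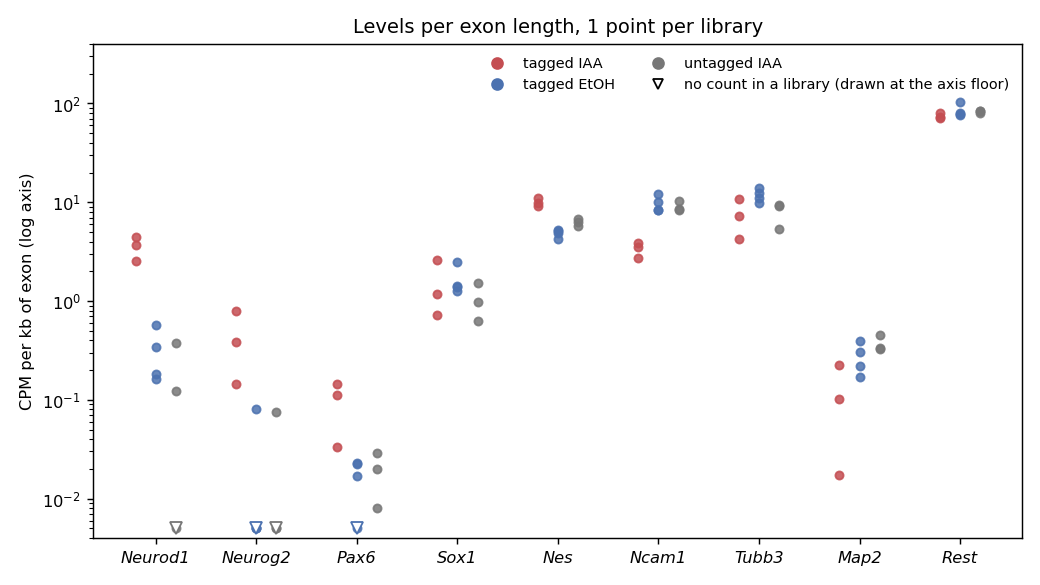
Level per kb of exon on a log axis, 1 point per library, for tagged IAA, tagged EtOH and untagged IAA libraries; open triangles at the floor mark groups with at least 1 library without a count. Rest lies at 71.3 CPM per kb or more, and Pax6 at 0.146 or less, in every library.

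Both called genes with the longest spans, Ncam1 and Map2, were lower. Among 12572 protein-coding genes with a mean of at least 1 CPM, the 576 over 200 kb had a median log2 fold change of -0.63, and 56.2% of them were called lower and 15.1% higher. The 2974 genes under 10 kb, as are the spans of Neurod1, Neurog2, Nes and Sox1, had a median of -0.06, with 30.4% lower and 26.8% higher. Over all these genes Spearman's rho between span and fold change was -0.09, a description across genes that share the same libraries. The part of gene length in the Ncam1 and Map2 values was not tested.

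**Figure D5:**
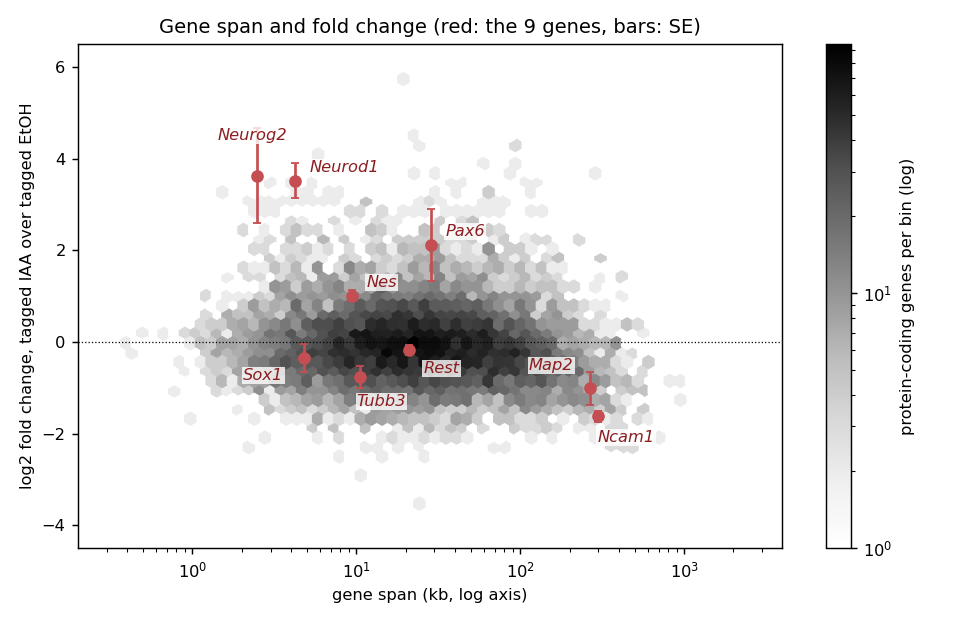
Log2 fold change of tagged IAA over tagged EtOH against gene span in kb (log axis) for 12572 protein-coding genes, shown as a density of genes per bin, with the 9 genes in red and bars of 1 standard error. Ncam1 and Map2 lie at the long end below 0, and Neurod1 and Neurog2 at the short end above the bulk of genes.

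Markers of other cell types were read in the same libraries. Of 8 neuron markers, which include Tubb3 and Map2, 5 were tested and 4 called lower by edgeR, beside 28.1% of all genes. Elavl4, 1 of these 4, was tested only through EtOH libraries, so the filter selected it for lower values in tagged IAA. Of the 4 that reached the cutoff in both treatments, 3 were lower (75%), beside 32.4% of such genes. Over all tested neuron markers, the lower count was 2 with library totals and 2 without the second 11D EtOH replicate. It was 1, of 3 tested, without the second 11D IAA replicate. The 8 summed to between 118 and 135 CPM in tagged IAA, between 220 and 231 CPM in tagged EtOH and between 155 and 202 CPM in untagged IAA libraries. Dcx, a defining marker of young neurons, had 1 count over the tagged IAA libraries and none in the others, and Rbfox3 and Snap25 held 5 counts each in tagged IAA, against 6 and 1 in tagged EtOH libraries. The 8 neural progenitor markers summed to between 67.8 and 86.1 CPM in tagged IAA and between 34.7 and 46.7 CPM in tagged EtOH libraries, but Nes alone averaged 64.3 and 31.2 CPM there, and Fabp7 was at 0 in every library. The 7 trophectoderm markers summed to between 30.7 and 38.5 CPM in tagged IAA and between 12.3 and 28.1 CPM in tagged EtOH libraries, and of 5 tested, Krt8 (0.95 ± 0.21, edgeR FDR = 0.000941) and Gata3 (1.70 ± 0.42, FDR = 0.00255) rose. These were 2 of the 4 that reached the cutoff in both treatments, beside 24.7% of such genes called higher. In line 10E, Krt8 and Gata3 had 0.38 ± 0.26 and 0.94 ± 0.55, and in line 11D 1.35 ± 0.22 and 2.59 ± 0.56. Cdx2, Krt18 and Krt7 did not pass (edgeR FDR = 0.137, 0.404 and 0.105). Against untagged IAA libraries, Cdx2 was lower in tagged IAA (-1.99 ± 0.39, edgeR FDR = 0.000561). Krt8 and Gata3 were higher in that comparison (FDR = 0.000234 and 0.0257). The 8 mesendoderm markers summed to between 9.83 and 33.3 CPM in tagged IAA and between 11.8 and 29.8 CPM in tagged EtOH libraries. Of 5 tested there, T rose (1.24 ± 0.27, edgeR FDR = 0.0011) and Eomes fell (-1.50 ± 0.24, FDR = 6.6e-05), and Gsc was called higher but tested only through tagged IAA libraries. T and Eomes were the 2 that reached the cutoff in both treatments, where 24.7% of genes were called higher and 32.4% lower. T also differed between the lines in EtOH (3.90 ± 0.35 in 10E over 11D, edgeR FDR = 4.71e-05). Against untagged IAA libraries, T in tagged IAA did not pass (-0.24 ± 0.21, edgeR FDR = 0.331). Of 6 fibroblast markers, which summed to between 3.30 and 5.13 CPM in tagged IAA and between 3.14 and 4.64 CPM in tagged EtOH libraries, 3 were tested and did not pass. The part of other lineages in the values of the 9 genes was not tested. Among endocrine markers, Ins1, Ins2 and Gcg were at 0 in every library, and the 8 genes summed to between 5.92 and 6.34 CPM in tagged IAA and between 3.85 and 8.25 CPM in tagged EtOH libraries. Of 10 glial markers, 5 were tested and 2 called higher, Pdgfra (1.80 ± 0.34, edgeR FDR = 0.000288) and Mbp (0.85 ± 0.27, FDR = 0.0125). All 5 reached the cutoff in both treatments, and 24.7% of such genes were called higher. As a reading of reads in genes that stem cells should not use, 1485 chemosensory receptor genes summed to between 79.6 and 95.2 CPM in tagged IAA, between 49.1 and 76.3 CPM in tagged EtOH and between 68.4 and 110 CPM in untagged IAA libraries. The part of such low-level reads in the values of Neurog2 and Pax6 was not tested.

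The genes most like each of the 9 were taken by Pearson's r of log2 CPM over the 10 libraries, among at least 12625 candidate genes with a mean of at least 1 CPM, with no test since all share the libraries and the treatment. For Neurod1 these were Tmem94 (r = 0.982) and Ikzf4 (0.978), for Ncam1 Gnaq (0.994) and Med1 (0.989), and for Nes Axl (0.963) and Taf4b (0.961). Map2 was nearest to Hmcn1 (0.979) and Fes (0.966), and Tubb3 to Hexim2 (0.949) and Fam193a (0.948). Neurog2 and Pax6 shared Zfp202 as nearest (0.954 and 0.955), followed by Morc4 (0.948) and Hsh2d (0.933). Sox1 reached only 0.895 with Dnaaf5 and 0.894 with Oxct2a, and Rest 0.915 with Dhx32 and 0.883 with Cap1.

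The authors' deposited table of IAA against EtOH, from DESeq2, gave an adjusted p under 0.05 to 4 of the 9 genes. In the authors' deposited table these were Ncam1 (log2 fold change -1.56, adjusted p = 2.99e-24), Nes (1.07, 4.33e-10), Neurod1 (3.51, 6.9e-09) and Tubb3 (-0.73, 0.0325). There Neurog2 (4.09, 0.0501), Map2 (-1.02, 0.0838), Pax6 (2.35, 0.126), Sox1 (-0.36, 0.483) and Rest (-0.08, 0.589) did not pass.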

How the data were processed

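Total RNA of E14 cells was made into NEBNext Directional libraries, per the labels. The authors deposited 1 table of whole-number counts per gene symbol, without normalization. STAR, deepTools and mm10 are named, per the submitters' processing notes; for the read counter, annotation and strand setting: not given in the sources used here. The authors' deposited comparison table holds, per the file headers, DESeq2's base mean (a signal), log2 fold change, Wald statistic (a score), p-value and adjusted p-value, and was used for description only.

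The table has 10 libraries for 11 labelled samples; 10E IAA has 1. Which clone is 10E and which 11D is not in the labels, and columns named TIR1 are read as untagged cells, the one line with an IAA replicate 3. No label names replicates as separate cultures; p-values then measure only spread among these libraries, possibly technical. Instead of the 8 tagged libraries planned for, 7 were analysed. Chi-square per degree of freedom between replicates was 3.05 to 28.9, above sampling noise.

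The tests used edgeR 4.0.16 (TMM, filterByExpr, quasi-likelihood F-test) in R 4.3.3 at an FDR under 0.05, after a trial on simulated data. IAA against EtOH was fitted on the 7 tagged libraries plus a line term; comparisons with untagged cells used all 10, with 1 coefficient per line and treatment and the lines averaged. filterByExpr kept genes with a total of at least 15 counts that reached its cutoff in 1 library, because the smallest group has 1. Total counts of 3100127 to 13510163 limit precision for genes near 1 CPM; intervals cover counting error only. Alternatives were DESeq2 1.42.0, RLE factors, library totals, other filters, a replicate block, no line term, 1 fit for all libraries and leaving out each library. Exon lengths, spans and overlaps came from GENCODE vM21 (53292 symbols matched), promoters from RefSeq (7 of 9 genes matched).

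The 9 genes and all lists were chosen with earlier results of these data known. Named genes are the 9, Supt16, Ssrp1, for each list the 3 smallest FDRs at most among calls in either direction, and the 2 genes most like each of the 9. Neurog3, Cerkl, Dcx, Rbfox3, Snap25, Fabp7 and the named endocrine, trophectoderm and mesendoderm genes were picked after their values were seen. A withheld item is not reported here.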

Additional observations from a re-analysis of the deposited data

Results flagged for a closer look

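Among the 4 tagged EtOH libraries of each of the 9 genes, 3 held a library far from the other 3 by Dixon's criterion at the 95% level; chance flags about 1 in 20 such groups, and 9 were examined. Neurog2 had 0.179 CPM in the second 11D EtOH replicate and none in the other 3, which is 2 reads. With 3 libraries at 0, any count in the remaining library is flagged, so this flag shows nothing beyond those reads. Sox1 stood at 12.1 CPM in the first 11D EtOH replicate, against at most 6.90 CPM in the others. Rest stood at 745 CPM in the second 10E EtOH replicate, against at most 574 CPM in the others. No explanation was tested for these values.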

How the results depend on the processing

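Neurod1, Nes and Ncam1 kept their direction and call of tagged IAA over tagged EtOH in all 17 alternatives, with log2 fold changes of 3.04 to 4.23, 0.95 to 1.34 and -1.72 to -1.30. With library totals, 7713 genes were called higher and 2851 lower, and 1 of the 9 genes lower; against untagged IAA 6899 were higher and 3006 lower. The 9 genes held 2 called higher with at least 1 CPM in 3 libraries and 2 with filterByExpr on treatment (a filter chosen after seeing the data), filters that leave Neurog2 and Pax6 out of the test. Against untagged IAA the count was 2 with DESeq2 and 2 with at least 1 CPM in 3 libraries. In line 11D, 1 of the 9 was lower with library totals and 1 with DESeq2 (both alternatives added after seeing the data). Leaving out 1 library gave 3888 to 4907 genes higher and 4016 to 5085 lower, with 2 to 4 of the 9 higher and 1 to 4 lower; against untagged IAA it gave 3913 to 4939 and 4233 to 4983 genes, with 2 to 4 and 2 to 3 of the 9. Without the 10E IAA library, Neurog2 and Pax6 were not tested. Pax6 lost its call with DESeq2 (FDR = 0.0642) and without both EtOH libraries that hold most CT010467.1 reads (1.71, edgeR FDR = 0.122; chosen after seeing the data), and over single libraries left out its FDR ran to 0.0879. Map2 lost its call with DESeq2 (FDR = 0.0702). Against untagged IAA, Neurog2 lost its call with DESeq2 (FDR = 0.0618) and without untagged replicate 3 (FDR = 0.0644), Pax6 in 6 of 13 alternatives, and Tubb3 gained one without untagged replicate 1 (-0.64, FDR = 0.0242). Deviations of same-numbered tagged libraries from their group means had r of -0.11, 0.16 (within line 11D) and -0.17. With 2 libraries per group these deviations mirror each other, and 10E IAA has 1 library. The values therefore cannot decide whether the numbers pair the libraries. With the replicate block 5047 genes were higher and 4872 lower, and 3 of the 9 each way, Pax6 being lost (1.80, edgeR FDR = 0.0721). DESeq2 results without an adjusted p are not counted. The causes of these changes were not tested. Neurog2 and Pax6 rest on 16 and 18 counts in tagged IAA libraries.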
